A study of Mus musculus with 6 samples.

Results

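The antioxidant genes described here encode the enzymes and regulators of the glutathione, thioredoxin and peroxiredoxin systems, together with the superoxide dismutases, catalase and the Nrf2 regulators. The list held 38 mouse gene symbols. On the array 36 of them had a probe set that carried a single symbol, and 34 of these were bright enough to be tested, out of 13956 genes tested and 19938 genes named on the array. The list was chosen with earlier results of these data known. Within it, measured values set which probe set stood for a gene: Gpx4, Prdx1 and Prdx2 each had several, of which the one brightest on average was used. Prdx5 and Prdx6 were not analysed here. Nqo1 and Gpx7 were below the filter on dim genes and are given as values.

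The study asked how loss of Zfx, a zinc finger transcription factor encoded on the X chromosome, alters expression in a mouse T cell acute lymphoblastic leukemia (T-ALL) driven by Notch. All arrays came from hematopoietic progenitors of the genotype Zfx fl/y with a Cre-ER transgene, transformed by a retrovirus carrying Notch-IC, the active intracellular part of Notch. The Tamoxifen group, labelled ZFX null, held 3 arrays of leukemia cells from secondary recipients that were given Tamoxifen by gavage at 5 mg a day for 3 days. The Vehicle group, labelled ZFX flox, held 3 arrays of cells from recipients given Vehicle. Each group had 1 array of each of the independent leukemia lines 14843, 14844 and 14846, so the arrays form 3 pairs. Recipients had been sublethally irradiated, dosing began 10 days after transplant, and GFP+ leukemia cells were sorted 48 hours after the last dose. No group received Tamoxifen without Cre-ER or without the loxP-flanked allele, so responses to the drug, to Cre activity and to loss of Zfx cannot be told apart. Each line is a separate leukemia, passed into different mice for each treatment. The p-values and standard errors (SE) of differences rest on the spread between these 3 pairs, moderated by limma with the spread of other genes.

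As background, cells remove superoxide by dismutation to hydrogen peroxide, and remove hydrogen peroxide through catalase, glutathione peroxidases and peroxiredoxins. Glutathione peroxidases draw their electrons from the tripeptide glutathione, and most peroxiredoxins draw theirs from thioredoxin. Glutathione reductase and thioredoxin reductases restore both carriers with NADPH. The transcription factor Nrf2, encoded by Nfe2l2, is held in check by Keap1 and binds antioxidant response elements at many of these genes.

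The Zfx probe set had log2 intensities of 10.96, 10.98 and 10.86 in Tamoxifen arrays of lines 14843, 14844 and 14846, against 10.98, 10.90 and 10.72 in Vehicle arrays. The groups overlapped, with a limma adjusted p of 0.48. Where its probes lie relative to the deleted part is not known here, so the value is no check of the deletion, and each group keeps its label's name. Idh2, the mitochondrial isocitrate dehydrogenase that makes NADPH, fell 2.64-fold (adjusted p = 0.0063). Of 12 T-lineage markers listed, all 11 that were measured were tested. Their summed intensity was 58983 to 65377 in Tamoxifen arrays and 62852 to 71025 in Vehicle arrays. The series has no arrays of other cells, so these values compare the groups and are no check of leukemia identity. Array medians lay between 201.6 and 208.3 on the linear scale.

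Tamoxifen arrays had lower levels of 7 antioxidant genes and higher levels of 3. Peroxiredoxin genes Prdx2 and Prdx3, both intracellular superoxide dismutase genes Sod1 and Sod2, and the glutathione genes Gclm, Gpx4 and Gstz1 fell. The glutathione genes Ggct and Gstm1 and the methionine sulfoxide reductase gene Msra rose. Prdx2 fell 2.11-fold, and the other 9 changed by 1.22-fold to 1.55-fold. Thus 10 of 34 tested antioxidant genes passed a limma adjusted p of 0.05, where 6.23% of all tested genes did. Among all tested genes 4.93% were lower and 1.3% were higher. Each of the 10 moved the same way in all 3 lines, which their selection by within-line differences favours. Of the 34, 22 did, where 48.8% of all tested genes did. The share of calls that were lower was 79.1% over all tested genes, and 57.7% after arrays were centred on the median of the tested genes. Under that centring 4 antioxidant genes were lower and 4 higher: Sod2, Gpx4 and Prdx3 no longer passed, and Mgst3 did.

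These calls depended on line 14844 and on the pairing. Without line 14844, 0 of the 34 genes passed, while 15 had an unadjusted p under 0.05 by limma, and the adjusted p-values of the 10 genes then lay between 0.114 and 0.219. Each fit with a line left out has 1 residual degree of freedom per gene. Without line 14844 only 70 of all 13956 genes passed. Without line 14843, 5 of the 10 passed, beside 427 lower and 71 higher genes over all tested. Without line 14846, 6 did, beside 500 lower and 169 higher. Without line as a block, Sod1, Gpx4 and Ggct passed.

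**Figure D1:**
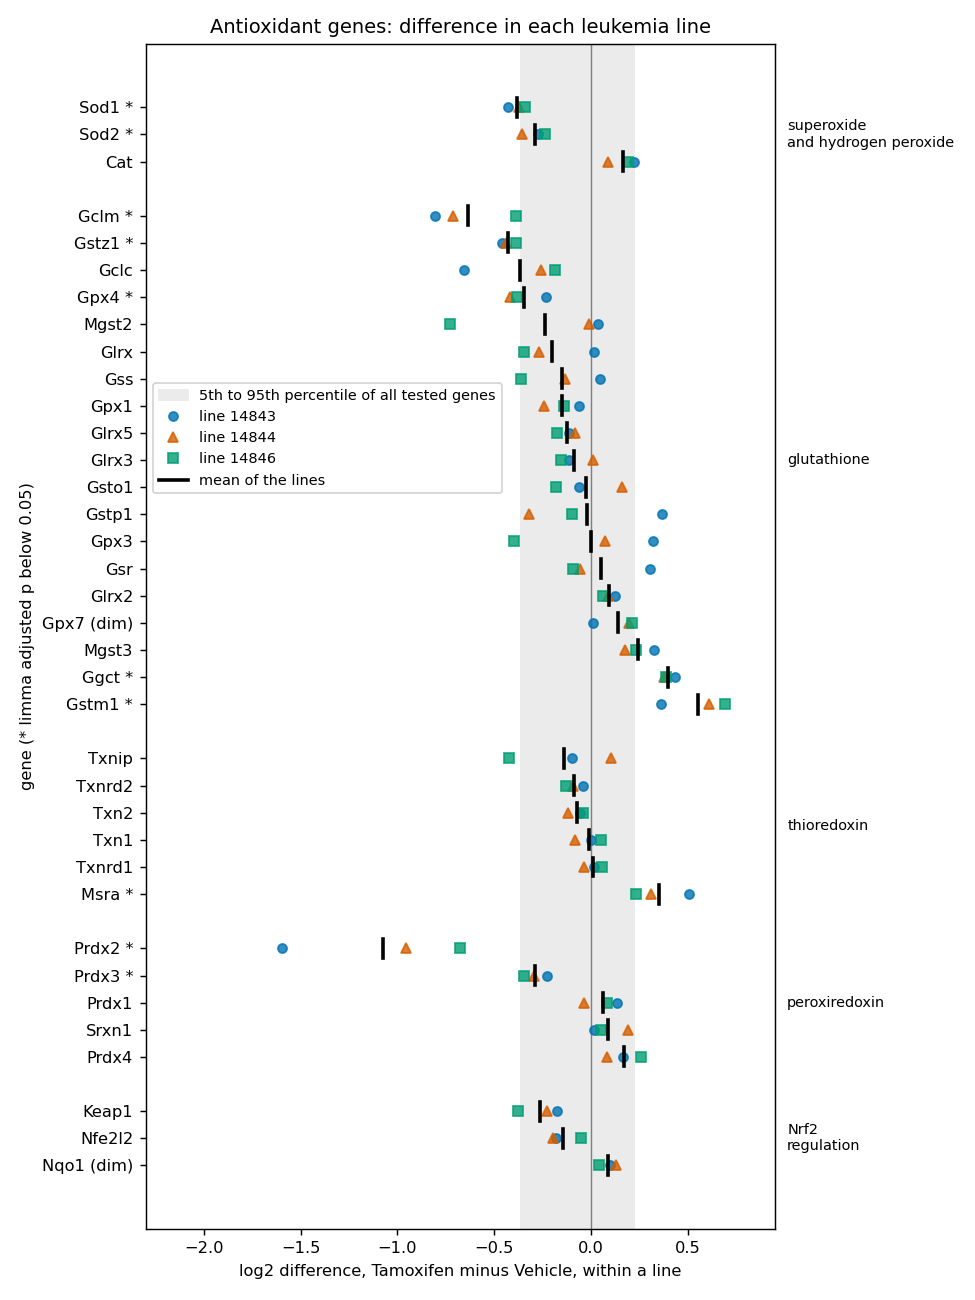
Within-line log2 differences (Tamoxifen minus Vehicle) of the 36 measured antioxidant genes, grouped by branch, with a symbol for each line and a bar at the mean. Asterisks mark the 10 genes past a limma adjusted p of 0.05, and Prdx2 lies farthest from 0, at -1.60, -0.96 and -0.67 in lines 14843, 14844 and 14846.

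Counts of changed genes are given for each branch, where 4.93% of all tested genes were lower and 1.3% higher. The superoxide and hydrogen peroxide branch had 2 of 3 genes lower, at a median log2 difference of -0.29. The glutathione branch had 3 lower and 2 higher of 18 tested, at a median of -0.10. Of the thioredoxin branch only Msra, 1 of 6, passed, and its median was -0.04 while its mean was 0.01. The peroxiredoxin branch had 2 lower of 5 tested. Its median was 0.06 while its mean was -0.21, with Prdx2 at -1.08 and the other 4 between -0.29 and 0.17. That median was -0.11 with a filter at the 50th percentile, and also over Prdx1 to Prdx4 without Srxn1. Neither Nrf2 regulator tested passed, at a median of -0.20. All 34 antioxidant genes had a median of -0.09, and all 13956 tested genes a median of 0.03. After arrays were centred on the median of the tested genes, which moved the median of all tested genes to 0.08, the thioredoxin median turned positive, at 0.02. No test was run over the list or its branches.

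Branch medians also varied by line. The glutathione median was 0.03 in line 14843, -0.07 in line 14844 and -0.18 in line 14846. Without line 14846 it was -0.014, and that of all 34 genes -0.040. The superoxide and hydrogen peroxide median lay between -0.36 and -0.24, and with 3 genes it was the value of Sod2 in every line. Line medians ran from -0.06 to 0.01 for thioredoxin, -0.04 to 0.05 for peroxiredoxin and -0.21 to -0.18 for Nrf2 regulation. Their SD across lines was 0.10 for glutathione, 0.06 for superoxide and hydrogen peroxide, 0.04 for peroxiredoxin, 0.03 for thioredoxin and 0.02 for Nrf2 regulation. The difference between branches was not tested.

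**Figure D2:**
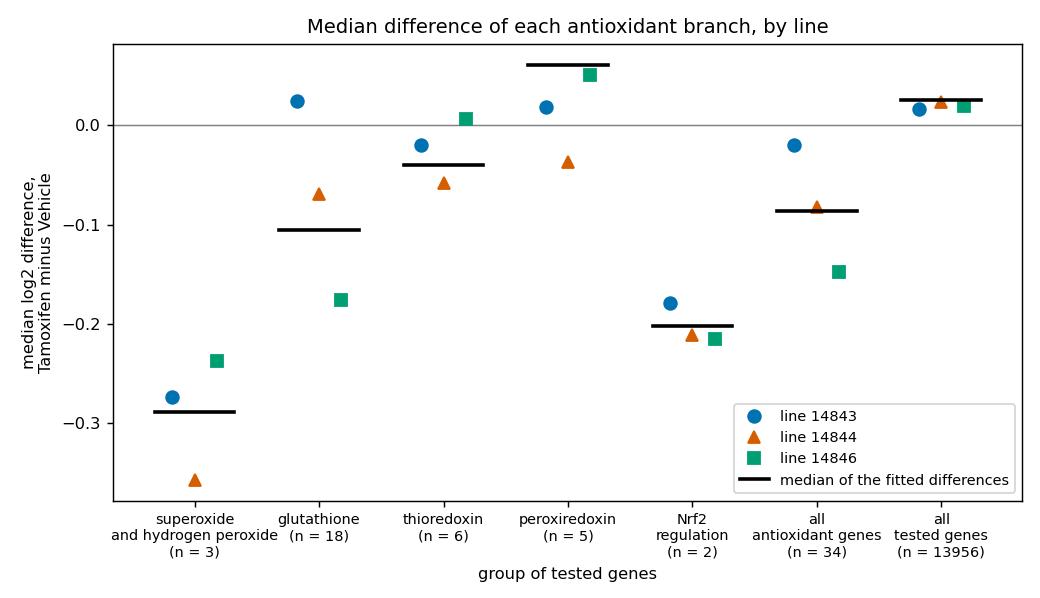
Median log2 difference (Tamoxifen minus Vehicle) of each branch in each line, with a bar at the median of the fitted differences. Branches lie between -0.29 and 0.06, and all 13956 tested genes lie at 0.03.

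Promoter sequences are shown for 4 of the changed genes: Prdx2, which moved most, and Gclm, Sod1 and Ggct, the changed genes whose window held the antioxidant response element core. Each comes from the RefSeq promoter table of build GRCm38.p6, whose windows here hold the 250 bases before a transcript start, written 5′ to 3′ on the strand of the gene. For Gclm and Ggct that start lay inside the gene as RefSeq spans it, so the last 70 and 93 bases of their windows are not shown. Capitals mark the element core TGACNNNGC and the core AGGCCT reported for ZFX, each searched on both strands, and Prdx2 held neither. The windows lie at chr8:84969372-84969621 (plus strand) for Prdx2, chr3:122245307-122245486 (plus) for Gclm, chr16:90220512-90220761 (plus) for Sod1 and chr6:54992961-54993117 (minus) for Ggct.
Prdx2: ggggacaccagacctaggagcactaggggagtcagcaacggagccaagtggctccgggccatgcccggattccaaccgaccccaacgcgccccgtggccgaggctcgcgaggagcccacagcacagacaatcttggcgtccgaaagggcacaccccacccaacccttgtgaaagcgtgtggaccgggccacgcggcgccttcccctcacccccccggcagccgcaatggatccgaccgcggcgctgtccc
Gclm: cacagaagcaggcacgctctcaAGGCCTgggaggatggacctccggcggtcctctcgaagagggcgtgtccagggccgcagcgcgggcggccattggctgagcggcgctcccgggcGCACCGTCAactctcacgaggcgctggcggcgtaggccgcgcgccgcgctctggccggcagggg
Sod1: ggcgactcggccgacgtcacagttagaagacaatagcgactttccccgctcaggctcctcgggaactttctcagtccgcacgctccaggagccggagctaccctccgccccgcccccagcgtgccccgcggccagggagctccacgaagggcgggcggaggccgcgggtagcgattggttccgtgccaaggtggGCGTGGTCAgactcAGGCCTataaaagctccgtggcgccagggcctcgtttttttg
Ggct: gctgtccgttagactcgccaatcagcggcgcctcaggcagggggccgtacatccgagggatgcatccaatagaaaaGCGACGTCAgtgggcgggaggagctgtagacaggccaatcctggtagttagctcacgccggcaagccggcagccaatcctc

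In these sequences the element core reads as its reverse complement, 55 bases before the gene in Gclm, 47 in Sod1 and 72 in Ggct. The ZFX core lies 152 bases before the gene in Gclm and 36 in Sod1, and the cores do not overlap. Whole 250-base windows were searched for the counts, and entries were found for 33 of the 36 measured antioxidant genes. The element core was present in at least 1 window of 6 of these 33, and of 3 of the 9 changed genes with an entry, against 11.5% of all 27025 genes. The ZFX core was present in 7 of the 33 and in 3 of the 9, namely Gclm, Gpx4 and Sod1, against 9.89% of all genes. The 33 genes had 44 windows and the 27025 genes had 32851, so the number of windows per gene differed. The 27025 also include genes not tested here, and these shares were not tested against each other. Gclm and Sod1 were lower while Ggct was higher, so the element core was found at genes that moved in both directions. It was also found at Nfe2l2, Prdx1 and Txnrd1, which did not pass. Likewise the ZFX core was found at Glrx, Glrx5, Nfe2l2 and Txnip, which did not pass. A match is a match of letters only, and binding was not measured.

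Peroxiredoxins reduce hydrogen peroxide with a reactive cysteine. Prdx2, a cytosolic peroxiredoxin abundant in red cells, had log2 intensities of 10.69, 11.48 and 11.65 in Tamoxifen arrays of lines 14843, 14844 and 14846, against 12.28, 12.44 and 12.32 in Vehicle arrays. Every Tamoxifen array was below every Vehicle array, and line 14843 was lowest. It fell by 1.08 on the log2 scale (SE 0.17), and its limma adjusted p was 0.029, or 0.091 without line as a block. None of 5 tested erythroid markers passed. Over the 7 measured erythroid markers, summed intensity was 2930 to 3461 in Tamoxifen arrays and 2745 to 3695 in Vehicle arrays. Most of that sum is Tfrc, at mean log2 intensities of 11.27 in Tamoxifen arrays and 11.23 in Vehicle arrays. Slc4a1, the next brightest, stood at 7.70 and 7.71, so the sum is no measure of the other erythroid markers. The spread of Prdx2 among Tamoxifen arrays (SD 0.51, n = 3) exceeded that among Vehicle arrays (SD 0.08, n = 3). A second, dimmer Prdx2 probe set gave -1.44, -0.87 and -0.71 in the 3 lines, close to the -1.60, -0.96 and -0.67 of the probe set used. Without the positions of the probes, signal from near-identical gene copies cannot be told apart from Prdx2 itself.

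Prdx3, the mitochondrial peroxiredoxin, stood at 11.08, 11.24 and 11.30 in Tamoxifen arrays, against 11.30, 11.53 and 11.64 in Vehicle arrays. The groups did not overlap, though they nearly touched, and the log2 difference was -0.29 ± 0.05 (SE; limma adjusted p = 0.040). This call was lost when any 1 line was omitted, without the block (adjusted p = 0.25) and under quantile normalization (0.053).

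The other peroxiredoxin genes did not pass. Prdx1, a close cytosolic relative of Prdx2, gave 12.59, 12.69 and 12.66 in Tamoxifen arrays, against 12.46, 12.73 and 12.58 in Vehicle arrays. Its groups overlapped, at a log2 difference of 0.06 ± 0.06 (SE; 95% interval -0.08 to 0.21), and its second probe set also gave 0.06. Prdx4, the peroxiredoxin of the endoplasmic reticulum, gave 0.17 ± 0.06 (adjusted p = 0.16). Srxn1, which encodes sulfiredoxin, the enzyme that repairs overoxidised peroxiredoxins, gave 0.09 ± 0.06 (adjusted p = 0.41).

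Superoxide dismutases convert superoxide to hydrogen peroxide. Sod1, the copper and zinc enzyme of the cytosol, had 12.11, 12.18 and 12.21 in Tamoxifen arrays, against 12.53, 12.55 and 12.55 in Vehicle arrays. The groups did not overlap, and the Vehicle arrays were nearly equal. Sod1 was 1.30-fold lower (-0.38 ± 0.05 SE on the log2 scale, limma adjusted p = 0.019) and passed without the block as well (adjusted p = 0.026), but not without line 14843 (0.062).

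Sod2, the manganese enzyme of mitochondria, had 11.17, 11.45 and 11.47 in Tamoxifen arrays, against 11.44, 11.81 and 11.71 in Vehicle arrays. Groups overlapped because line 14843 was low under both treatments, while each line was lower under Tamoxifen. The log2 difference was -0.29 ± 0.05 (SE; limma adjusted p = 0.041), and the call was lost whichever line was left out and without the block (adjusted p = 0.32). Cat, which encodes catalase, lay at 12.50, 12.34 and 12.30 in Tamoxifen arrays, against 12.27, 12.25 and 12.11 in Vehicle arrays. Its groups did not overlap, but its difference of 0.17 ± 0.05 did not pass (adjusted p = 0.145).

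Glutathione is made from amino acids by glutamate-cysteine ligase and then by glutathione synthetase. Of the 3 genes of this route, Gclm fell and the other two did not pass. Gclm, the modifier subunit of the ligase, had 8.88, 9.31 and 9.73 in Tamoxifen arrays, against 9.69, 10.02 and 10.12 in Vehicle arrays. Each line was lower under Tamoxifen, and the groups overlapped only because Tamoxifen line 14846 lay just above Vehicle line 14843. This 1.55-fold decrease (-0.63 ± 0.09 SE, log2) passed at a limma adjusted p of 0.022 but not without the block (0.24).

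Gclc, the catalytic subunit, was at 10.48, 10.69 and 11.004 in Tamoxifen arrays, against 11.13, 10.94 and 11.19 in Vehicle arrays. Within lines it differed by -0.66, -0.26 and -0.18, most in line 14843, and the fitted difference of -0.36 ± 0.10 did not pass (adjusted p = 0.11). Gss, glutathione synthetase, gave -0.15 ± 0.09 with line 14843 slightly positive. Ggct, a cytosolic gamma-glutamyl cyclotransferase, rose. It stood at 8.19, 8.21 and 8.30 in Tamoxifen arrays, against 7.76, 7.83 and 7.91 in Vehicle arrays, without overlap. The log2 difference of 0.40 ± 0.05 (SE) had a limma adjusted p of 0.016, and of 0.037 without the block, and did not pass without line 14843 (0.051).

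Gsr, the reductase that regenerates glutathione, did not pass at 0.05 ± 0.09 (SE), with 0.31 in line 14843 and -0.05 and -0.09 in lines 14844 and 14846. Of the peroxidase genes Gpx4, whose selenoenzyme reduces lipid hydroperoxides in membranes, was lower. It had 10.24, 10.15 and 10.20 in Tamoxifen arrays, against 10.47, 10.57 and 10.58 in Vehicle arrays, without overlap. Its log2 difference was -0.34 ± 0.06 (limma adjusted p = 0.035, and 0.040 without the block, but lost without line 14846 at 0.086), and its second probe set gave -0.31. Gpx1, the common cytosolic peroxidase, gave -0.15 ± 0.06 (adjusted p = 0.21). The secreted Gpx3 gave -0.0016 ± 0.14, with opposite signs among lines. Gpx7, of the endoplasmic reticulum, was dim and gave 0.14 ± 0.06.

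Glutaredoxins use glutathione to reduce protein disulfides, or bind iron-sulfur clusters. None of the 4 passed, and their log2 differences ran from -0.20 in Glrx to 0.09 in Glrx2. Glutathione transferases, which join glutathione to other molecules, had 1 higher and 1 lower gene of 6 tested, and the other 4 did not pass. Over all tested genes 1.3% were higher and 4.93% lower. The median log2 difference of the 6 was -0.02. Gstm1, a mu class transferase, had 9.14, 9.13 and 8.82 in Tamoxifen arrays, against 8.78, 8.52 and 8.12 in Vehicle arrays. The groups were separate, and the rise was 1.47-fold, at a log2 difference of 0.55 ± 0.08 (SE; limma adjusted p = 0.021, and 0.20 without the block). Members of the mu class are close in sequence, and cross-hybridisation was not tested.

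Gstz1, the zeta class enzyme of tyrosine breakdown, had 7.86, 8.29 and 8.43 in Tamoxifen arrays, against 8.32, 8.73 and 8.82 in Vehicle arrays. The offset was nearly equal in the lines, at -0.46, -0.44 and -0.39, while the lines themselves lay apart, so that groups overlapped. The fitted difference was -0.43 ± 0.05 (SE; limma adjusted p = 0.014, and 0.33 without the block). Mgst3, a microsomal transferase, gave 0.24 ± 0.06 (SE) without overlap between groups and did not pass (adjusted p = 0.069). Gsto1 and Gstp1 gave -0.03 ± 0.08 and -0.02 ± 0.13, both with signs that differed between lines, and Mgst2 gave -0.23 ± 0.16.

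**Figure D3:**
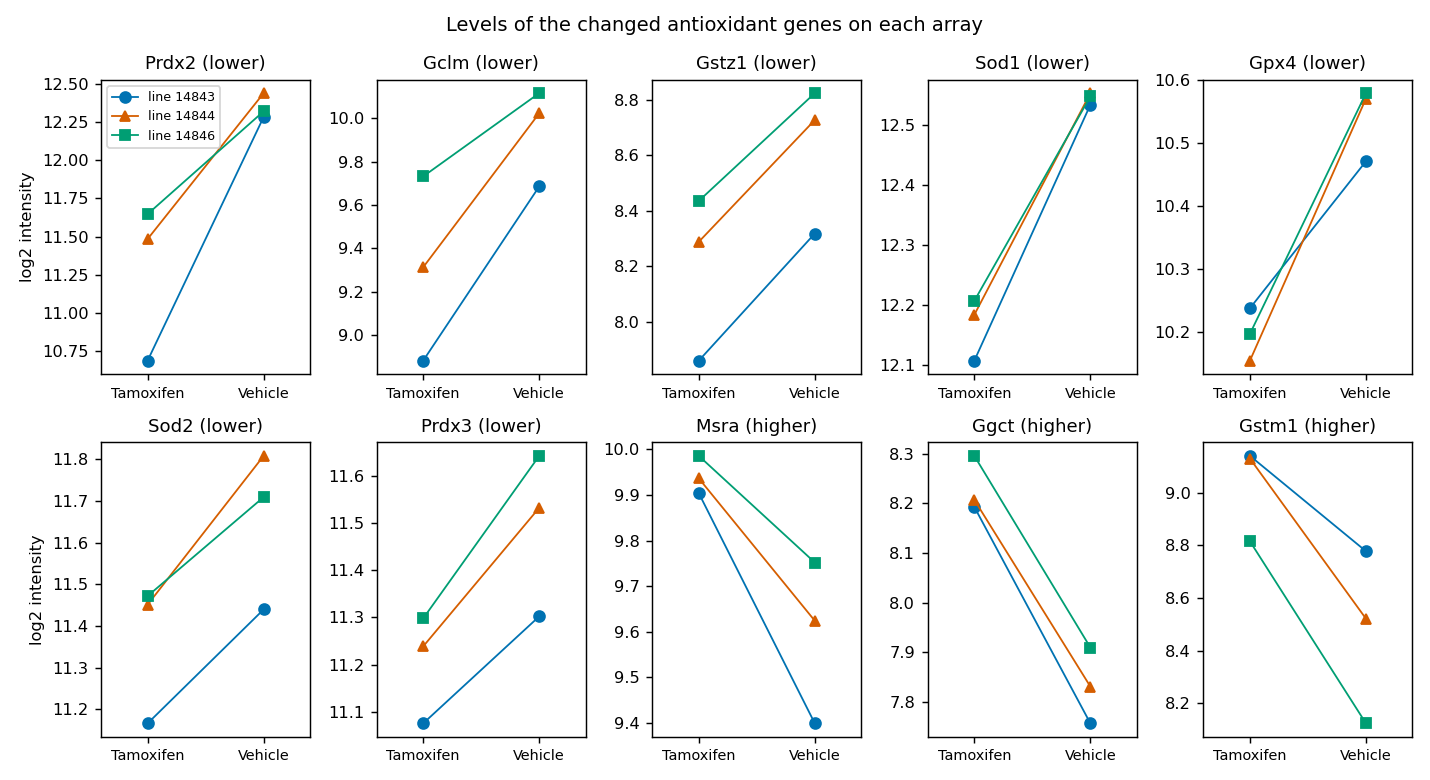
Log2 intensity of the 10 changed antioxidant genes on each array, with Tamoxifen left and Vehicle right and a line joining the arrays of each leukemia. The y axes differ between panels and do not start at 0. All 3 joined pairs slope the same way in each panel, which the selection of these genes favours.

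Thioredoxin carries electrons to peroxiredoxins, ribonucleotide reductase and methionine sulfoxide reductases. Its cytosolic form Txn1 had 13.88, 13.90 and 13.94 in Tamoxifen arrays, against 13.88, 13.98 and 13.89 in Vehicle arrays. Those groups overlapped almost fully, and the 95% interval of the log2 difference ran from -0.14 to 0.13. Txnrd1, the cytosolic reductase, gave 0.01 ± 0.05 (SE; 95% interval -0.12 to 0.14). These intervals would leave out a change as large as that fitted for Sod1 or Gpx4. The mitochondrial Txn2 and Txnrd2 gave -0.07 ± 0.05 and -0.09 ± 0.05, negative in every line and short of the threshold (adjusted p = 0.44 and 0.36). Txnip, which binds and inhibits thioredoxin, gave -0.10, 0.10 and -0.42 in lines 14843, 14844 and 14846.

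Msra, which reduces oxidised methionine with electrons from thioredoxin, was the branch's changed gene. It had 9.90, 9.94 and 9.99 in Tamoxifen arrays, against 9.40, 9.62 and 9.75 in Vehicle arrays. Tamoxifen arrays were all higher and closer together. The log2 difference was 0.35 ± 0.07 (SE; limma adjusted p = 0.049), the weakest of the 10 calls, and it was kept in 5 of 12 alternatives. It was lost when any 1 line was omitted, without the block (adjusted p = 0.14), with eBayes trend and robust settings (0.051), with no filter on dim genes (0.057) and with arrays centred on their median (0.056).

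Neither tested regulator of the response passed, though Keap1 did after arrays were centred on the median of named genes (limma adjusted p = 0.043). Keap1 had 9.05, 9.07 and 9.09 in Tamoxifen arrays, against 9.23, 9.29 and 9.47 in Vehicle arrays, without overlap, at -0.26 ± 0.06 (SE; limma adjusted p = 0.073). Nfe2l2 had 11.20, 11.27 and 11.37 in Tamoxifen arrays, against 11.39, 11.46 and 11.42 in Vehicle arrays, again without overlap, at -0.14 ± 0.06 (adjusted p = 0.21). Across the antioxidant genes, groups did not overlap for 12 of 34, where 23.7% of all tested genes did not. Nqo1, a quinone reductase and classical Nrf2 target, was dim under both treatments, at 5.95 ± 0.11 log2 intensity in Tamoxifen arrays and 5.86 ± 0.10 in Vehicle arrays (SD, n = 3 each).

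Properties that the choice of members did not use cut across the branches, and the groups below were drawn after values were seen. Of 6 genes for mitochondrial enzymes, Sod2 and Prdx3 were lower, while Txn2, Txnrd2, Glrx2 and Glrx5 did not pass, and the median log2 difference was -0.10. Of 5 selenoprotein genes Gpx4 alone was lower, and Gpx1, Gpx3, Txnrd1 and Txnrd2 did not pass. For both groups, 4.93% of all tested genes were lower.

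The leukemias themselves differed in 3 antioxidant genes by limma's moderated F test of line, where 3.11% of all tested genes did. Glrx, the cytosolic glutaredoxin, averaged 9.88, 10.25 and 11.14 log2 intensity in lines 14843, 14844 and 14846 (adjusted p = 0.010). Glrx3, which carries iron-sulfur clusters, averaged 9.46, 10.06 and 9.88 (adjusted p = 0.028). Gstz1 averaged 8.09, 8.51 and 8.63 (adjusted p = 0.024). Line 14843 was lowest for all of them. These calls depended on the lines compared. Without line 14843 Glrx, Gsto1 and Mgst2 passed, without line 14844 Glrx alone, and without line 14846 Glrx3 and Mgst2, so Gstz1 was lost each time. After centring on the median of the tested genes Gsto1 and Mgst2 passed too, 5 in all. The 3.11% belongs to the main fit, and no share of all tested genes is given for these other fits. Mgst2, a microsomal transferase, had 10.05, 10.49 and 9.09 in Tamoxifen arrays and 10.02, 10.50 and 9.82 in Vehicle arrays, so that the array of line 14846 under Tamoxifen stood apart.

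**Figure D4:**
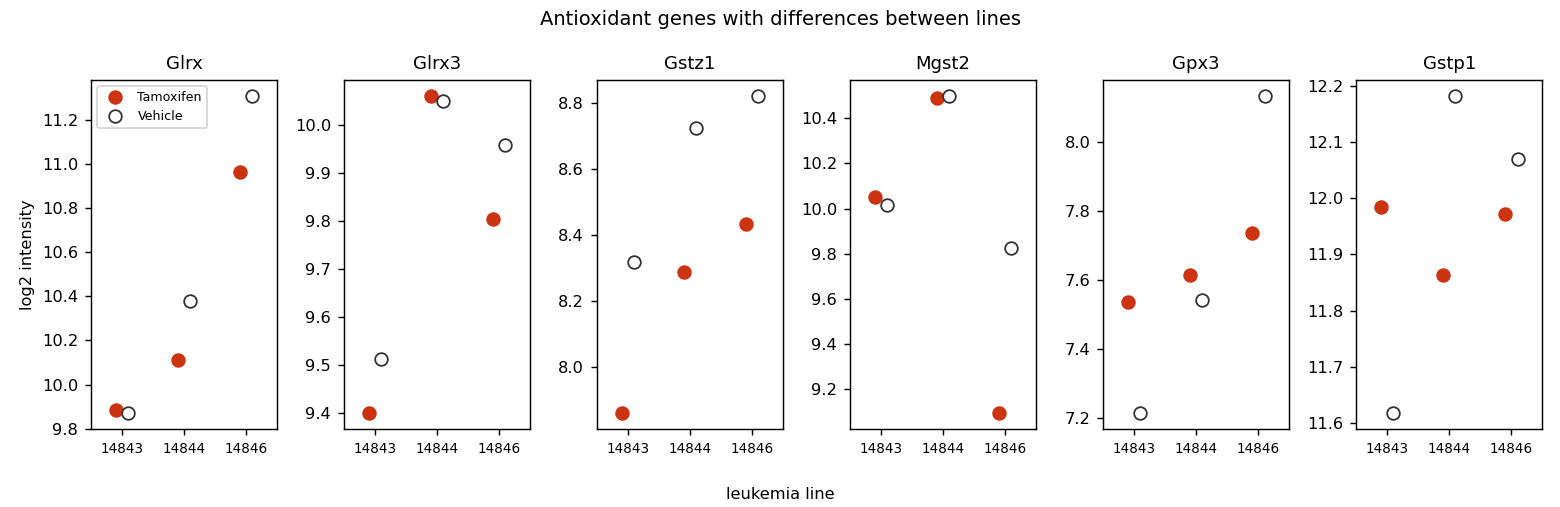
Log2 intensity by leukemia line for Glrx, Glrx3 and Gstz1, which differed between lines, and for Mgst2, Gpx3 and Gstp1, chosen after their values were seen, with Tamoxifen as filled and Vehicle as open points. The y axes differ between panels, and Glrx spans 9.88 to 11.14 between line means.

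Other genes of these pathways, 81 in 3 lists chosen with earlier results known, had a median log2 difference of -0.05. Of the 68 tested, 7 were lower and 2 higher, where 4.93% and 1.3% of all tested genes were. Of 22 other glutathione genes 3 were lower. Slc25a39, the mitochondrial glutathione importer, had 9.82, 10.05 and 10.01 in Tamoxifen arrays, against 10.66, 11.02 and 10.94 in Vehicle arrays. The groups were far apart, at a 1.89-fold decrease (log2 difference -0.91 ± 0.05 SE, limma adjusted p = 0.0027). Its paralog Slc25a40, named after its values were seen, gave -0.39 ± 0.10 (adjusted p = 0.093). Of these 22 genes 12 had negative and 10 positive differences. Among the positive ones, also named after their values were seen, Chac2 gave 0.27 ± 0.06 (adjusted p = 0.064) and Slc7a11 0.50 ± 0.12 (0.083). Gpx8 had the largest, 1.18 ± 0.32 (0.10). Glo1 and Esd, which take part in the glutathione-dependent removal of aldehydes, fell by 0.36 and 0.37 on the log2 scale.

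Of 23 other thioredoxin family and methionine repair genes, 2 were lower, where 4.93% of all tested genes were. Ero1a, the oxidase that forms disulfides in the endoplasmic reticulum and yields hydrogen peroxide, had 9.77, 10.07 and 9.92 in Tamoxifen arrays, against 10.90, 10.78 and 10.82 in Vehicle arrays. That separation gave a 1.88-fold decrease (limma adjusted p = 0.0089), and Txndc15 fell by 0.33 on the log2 scale. Of 23 other Nrf2 pathway and target genes, Ugdh and Sqstm1 were lower and Nqo2 and Hmox1 higher. Nqo2, a quinone reductase related to Nqo1, had 9.78, 10.04 and 10.09 in Tamoxifen arrays, against 9.25, 9.51 and 9.60 in Vehicle arrays, a 1.43-fold increase (adjusted p = 0.0087). Hmox1, heme oxygenase, rose 1.35-fold (adjusted p = 0.018). Among reported Zfx targets and NADPH enzymes, Nadk, the kinase that makes NADP, fell by 0.32 and Idh1 rose by 0.35, beside the decreases of Idh2 and Ptpmt1 (log2 difference -2.22 ± 0.13 SE).

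Markers of other cells that could carry antioxidant transcripts past the sort were compared between the groups. No tested marker of any list passed. Among 5 tested of 7 measured erythroid markers, Gata1 gave the largest difference, 0.14 ± 0.06 (SE). Probe sets for Hba-a1, Hbb-bt and Hbb-bs carried more than 1 symbol and were not used. Of 11 monocyte and macrophage markers, 6 were tested, with a median log2 difference of 0.23. All 11 summed to 2208 to 2446 in Tamoxifen arrays and 2052 to 2231 in Vehicle arrays, with Itgam at 0.29 ± 0.09 (SE). Csf1r, Adgre1, Cd14, Mrc1 and Fcgr1 were below the filter. Neutrophil markers summed to 1500 to 3263 in Tamoxifen arrays and 1460 to 2445 in Vehicle arrays, with Ngp at 0.31 ± 0.17. B cell markers summed to 657 to 734 in Tamoxifen arrays and 586 to 1061 in Vehicle arrays, with Pax5 at 0.10 ± 0.05. Stroma and hepatocyte markers summed to 1276 to 1633 in Tamoxifen arrays and 1232 to 1689 in Vehicle arrays, with Col1a1 at 0.10 ± 0.05. Of the T-lineage markers Ptcra gave the largest difference, -0.27 ± 0.08. The part of these cells in the results was not tested. In bulk RNA, fewer cells of a type and less RNA per cell cannot be told apart.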

How the data were processed

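Trizol-extracted RNA of sorted cells, 200 ng a sample, was labelled with biotin and hybridised to 6 Affymetrix arrays, per the labels' protocols. The deposited values are linear probe set intensities for which the submitters' processing notes name RMA and version 1.1 of Affymetrix Expression Console. RMA equalises intensity distributions across arrays, so a shift common to most genes would not show. That the scale is linear follows from their range. Precision is limited by how many arrays there are.

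Of 35556 probe sets, 21789 carried 1 symbol and were used, 1621 carried several and 12146 were unnamed here. Symbols were checked by Entrez identifier against RefSeq genes (21698 found, 0 changed). The log2 of each intensity was taken, with the highest mean probe set per gene, and genes at or above the 30th percentile of mean log2 (6.70) were tested. With lmFit and eBayes, limma 3.58.1 (R 4.3.3) fitted treatment and line over all 13956 genes, two-sided with Benjamini-Hochberg adjustment at 0.05. Each gene had 2 residual degrees of freedom, and moderation added 3.47. The series design assigns each line to both treatments, and same-line arrays correlated at 0.64, 0.68 and 0.68 in their deviations from the group means. The script was tested on simulated data.

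The antioxidant genes, branches and other lists were chosen with earlier results of these data known. All members are named. From each other list up to 4 changed genes of smallest p are named, from marker lists the gene of largest difference, and exceptions are marked. Alternatives were the fit without the block, each line left out, eBayes with trend and robust settings, 2 other filters, 2 rescalings and averaged probe sets. Centring on the median of named genes or of tested genes was added after seeing the data.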

Additional observations from a re-analysis of the deposited data

Results flagged for a closer look

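Treatment differences of Gpx3 and Gstp1 ran in opposite directions in different lines, by at least 0.3 on the log2 scale each way. Gpx3 differed by 0.32 in line 14843 and by -0.40 in line 14846. Gstp1 differed by 0.37 in line 14843 and by -0.32 in line 14844. Each line had 1 array per treatment, so the difference between lines was not tested.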

How the results depend on the processing

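Given here are counts that moved by over 1.5 times, medians that moved by more than their spread between lines, and differences that changed sign. The cause was not tested, except that leaving out a line leaves fewer arrays. Smaller moves left 9 changed antioxidant genes with eBayes trend and robust settings, with no filter, with array-median centring and with quantile normalization, 11 with named-gene centring and 8 with tested-gene centring. Without line as a block, which ignores the pairing, 295 of all tested genes passed (20 higher, 275 lower), with 3 antioxidant genes (1 higher, 2 lower) and 3 other pathway genes. Leaving out each line in turn gave 70 to 669 changed genes (3 to 169 higher, 67 to 500 lower), 0 to 6 antioxidant genes (0 to 2 higher, 0 to 4 lower), 2 to 10 other pathway genes and 1 to 3 antioxidant genes that differed between lines. Centring on the median of the tested genes, chosen after seeing the data, gave 412 higher genes, 4 lower antioxidant genes and 5 that differed between lines. It moved the medians to 0.085 for all tested genes, 0.019 for thioredoxin, 0.12 for peroxiredoxin and -0.14 for Nrf2 regulation, with -0.027 for all antioxidant genes and -0.046 for glutathione, and reversed Gpx3 (0.058), Gsto1 (0.033), Gstp1 (0.042) and Txn1 (0.050). Centring on the median of named genes, also chosen later, gave -0.0023 for all tested genes, -0.23 for Nrf2 regulation and -0.015 for Txnrd1. Centring on array medians gave 0.012 for all tested genes and -0.00053 for Txnrd1, and quantile normalization gave 0.020 and, for Nrf2 regulation, -0.17. The stricter filter on dim genes gave medians of 0.0050 for all tested genes and -0.11 for peroxiredoxin, and no filter gave -0.14 for Nrf2 regulation. Differences short of the threshold changed sign with the line left out, running from -0.16 to 0.20 for Gpx3, -0.072 to 0.13 for Gsr, -0.12 to 0.050 for Gsto1, -0.21 to 0.13 for Gstp1, -0.37 to 0.013 for Mgst2, -0.040 to 0.027 for Txn1, -0.0095 to 0.037 for Txnrd1 and -0.26 to 0.0028 for Txnip.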
